A study of Mus musculus with 11 samples.

Results

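Of the 45281 probes on a mouse expression array, 98 gave a signal in embryoid bodies of the connexin-carrying control line and in no other group of the study. A probe was taken when its detection p-value, which ranks it among that array's own negative control beads, was under 0.01 on all 3 control embryoid body arrays and at least 0.05 on all 8 other arrays. These 98 probes are 0.216% of the array. The detection values of all 11 arrays chose them, so the height of control embryoid bodies over the other groups is given as a description, with no test. No source used here pairs the probes with genes or sequences, so each transcript is named by its probe identifier, and neither its function nor its position in the genome is given. Whether any of the probes read the same transcript is not known, so every count of transcripts below is a count of probes.

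The study hybridized RNA of male C57BL/6 mouse cells to 11 Illumina MouseWG-6 arrays, 1 sample to each, on which every transcript is read by beads that carry a matching probe. The control line, titled Cx43/45 flox, gave 2 arrays of stem cells and 3 of embryoid bodies. The deleted line, titled Cx43/45 del, gave 2 arrays of stem cells and 4 of embryoid bodies, and lacked exon 3 of both connexin genes. It also carried lacZ under the Cx43 promoter and eGFP under the Cx45 promoter. Stem cells were grown with leukemia inhibitory factor on a layer of mouse embryonic fibroblasts, and the sources used here do not say whether those fibroblasts were removed before RNA was taken. Embryoid bodies were grown from hanging drops without the factor, harvested on day 6 and pooled, about 300 to a sample. Each genotype is represented by 1 described line. The submitters call the replicates biological, but the labels link no array to its own culture, so any spread quoted here is the spread between these arrays. The deleted genes could not be read from unnamed probes, so the labels have no such check.

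Connexins assemble into gap junctions, channels through which neighbouring cells pass ions and small molecules. Embryoid bodies are aggregates in which stem cells leave pluripotency and form early tissues, the first of which is an outer layer of primitive endoderm. That layer secretes a basement membrane and transport proteins, and the series title names its formation as the subject of the study. Transcripts that start in embryoid bodies can come from a newly formed cell type, so in a pooled sample fewer cells of such a type and less RNA in each cell cannot be told apart. Whether any of the 98 probes reads a transcript of primitive endoderm was not analysed here.

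All arrays had a similar share of probes with a detection p-value under 0.05, between 39.7% and 43.0%. The level at which a probe matched the middle of the negative control beads lay between 106.2 and 126.1 units, and the lowest detected probe of an array lay 12.04 to 16.66 units above it. Values below are quantile-normalized intensities in the arrays' own units unless stated otherwise. They still hold this background, so the fold change of a dim transcript is compressed towards 1. Since every member is undetected in deleted bodies and stem cells, each fold given for it is a ratio to the background level there, not a measured ratio of transcript.

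Most of the 98 probes were dim even in control embryoid bodies. Their geometric mean over the 3 control arrays ran from 140.7 to 15583 units, with a median of 178.1 and quartiles of 157.7 and 253.3. Only 4 reached 1000 units, 20 reached 300 and 37 reached 200, while 61 stayed under 200. The same median over the 23268 probes detected at 0.05 on at least 2 arrays of any group was 187.7 units. That set includes probes undetected on control body arrays, so 187.7 is not the level of a typical probe expressed there. On the other arrays the members stood at background, with group means of 104.8 to 124.1 units in deleted embryoid bodies, 103.2 to 126.0 in control stem cells and 104.4 to 127.4 in deleted stem cells. All 98 had their 3 control embryoid body values above all 8 others, which 9.09% of the 23268 probes also had, and the rule used that contrast.

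**Figure D1:**
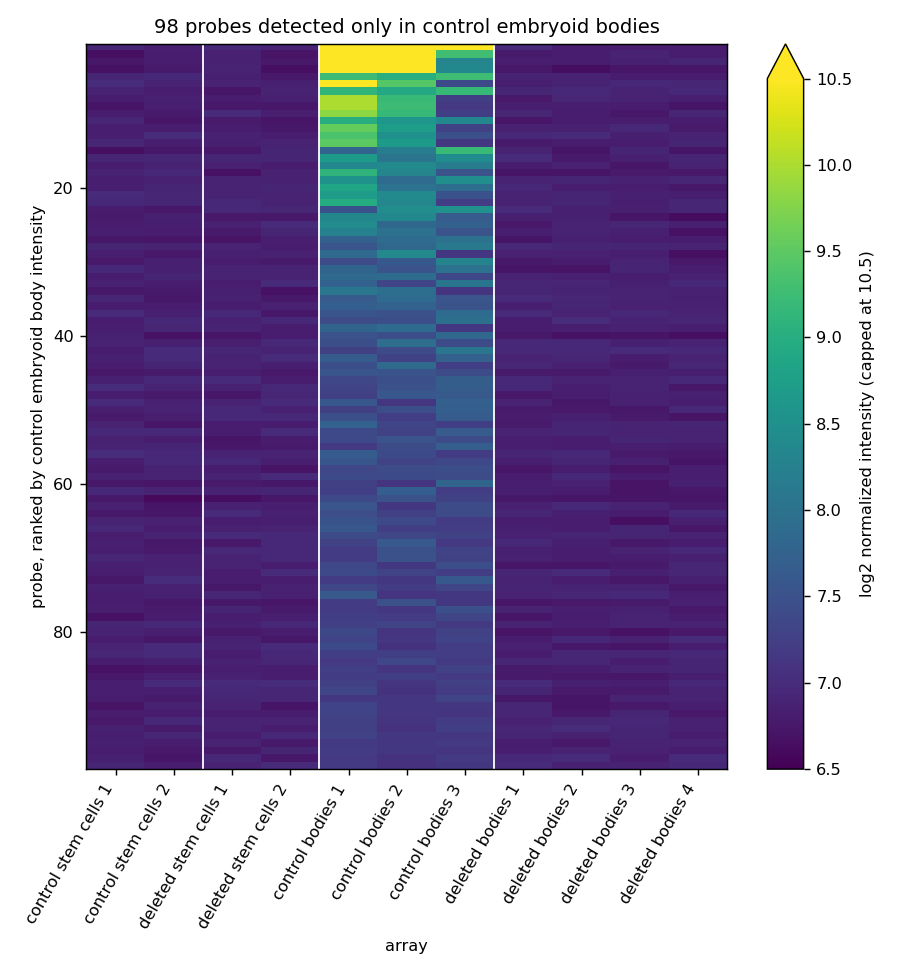
Log2 normalized intensity (colour) of the 98 probes (rows, ranked by their control embryoid body intensity) on each of the 11 arrays (columns, with white lines between the groups). The 3 control embryoid body columns stand out from the others. Of the 12 probes that lie at least 2-fold lower in the third of these columns, all but the brightest are darker there. The colour scale is capped, so the brightest probe, ILMN_1225816, has the same colour in all 3.

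The difference between control and deleted embryoid bodies was correspondingly small for most members. The median log2 difference was 0.64, a fold of 1.56, against -0.01 over all 23268 probes, and single members ran from 1.16-fold to 135-fold. At least 2-fold higher in control bodies were 27 members, at least 4-fold 8 and at least 10-fold 4. Over all probes 2.59% were at least 2-fold higher in control bodies, and nothing is read from the members' count because the rule used this contrast. Against control stem cells the median fold was also 1.56, and again 27 members reached 2-fold, where 6.41% of all probes did. When the background was removed with limma's neqc, the median log2 difference between the embryoid bodies was 1.80 instead of 0.64, and 92 of the 98 members were at least 2-fold higher in control bodies, against 6.5% of all probes.

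The brightest member was ILMN_1225816, at 30517, 25774 and 4811 units on the control embryoid body arrays 1, 2 and 3. In deleted embryoid bodies it read 125.5, 111.6, 113.1 and 111.8 units. Stem cells gave 121.8 and 114.0 units in the control line and 124.1 and 117.7 in the deleted line. It was thus among the brightest features of control array 1, at rank 25 of 45281 by deposited intensity, and undetected on the 8 other arrays. Its fold of 135 between control and deleted bodies, a ratio of geometric means, is limited by that background.

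The next brightest was ILMN_1240267, at 14533, 7586 and 621.7 units in control bodies. Its 4 deleted body arrays lay at 110.9, 111.3, 118.8 and 112.6 units, and its stem cell arrays at 101.6 and 113.1 (control) and 116.9 and 104.7 (deleted). The 36.1-fold difference between the embryoid bodies therefore rested mainly on control arrays 1 and 2. Control array 3 was lower than both by at least 12.2-fold.

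ILMN_3141257 read 10041, 6865 and 319.2 units in control bodies and 112.1, 112.9, 116.1 and 121.1 in deleted ones. Its stem cell values were 108.0, 111.6, 116.8 and 109.8 units, in the order of the control and then the deleted line. ILMN_2723322 read 7995, 6253 and 330.6 units in control bodies, with 107.7, 100.6, 107.3 and 106.7 in deleted bodies. The ratio of geometric means to the background level of deleted bodies was 24.3 and 24.1, and both probes were far lower on control array 3 than on arrays 1 and 2, though still detected there. By Euclidean distance of log2 values over all 11 arrays, ILMN_1240267, ILMN_3141257 and ILMN_2723322 lay nearest to ILMN_1225816, at 3.62, 4.65 and 4.80. These are also the next 3 in brightness, and with every member at background on 8 arrays that distance largely follows brightness.

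The 4 brightest members thus shared a shape in which control array 3 stood well below arrays 1 and 2. The shape went on among the members of middle brightness. ILMN_2545963 gave 1434, 700.3 and 167.6 units on control arrays 1 to 3, and 114.1 to 124.6 in deleted bodies. ILMN_1255462 gave 1029, 592.3 and 152.2 units, and ILMN_1244316 gave 1030, 607.8 and 143.6. ILMN_1255462 and ILMN_1244316 were nearly superimposable on the control arrays, although nothing used here says whether they share a transcript.

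The same order held for ILMN_1223244, at 903.8, 579.3 and 152.2 units, and for ILMN_2619200, at 753.8, 429.1 and 154.0. ILMN_1216452 followed at 720.9, 410.4 and 142.6 units, ILMN_2696696 at 660.5, 364.6 and 177.3, and ILMN_2771550 at 503.2, 327.6 and 150.4. In deleted bodies these 5 probes lay between 108.8 and 126.1 units. With ILMN_2675874, at 550.4, 318.2 and 183.5 units, array 3 was again lowest, but by less than 2-fold against array 2.

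Not every bright member had this shape. ILMN_1233994 was even across control bodies, at 605.4, 517.8 and 610.4 units (mean 577.9 ± 52.1, SD, n = 3), against 117.8, 118.4, 112.1 and 112.3 in deleted bodies, a 5.01-fold difference. Its stem cell arrays read 120.7 and 125.0 units in the control line and 115.6 and 109.7 in the deleted line. ILMN_2691780 was even as well, at 554.6, 483.1 and 581.4 units in control and 120.0, 124.3, 117.8 and 123.6 in deleted bodies, a 4.43-fold difference.

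For both of these transcripts the 3 control arrays were close to each other, and the lowest of them stood at least 3.89-fold above the highest of the 8 other arrays. ILMN_2748850 was intermediate, at 509.7, 386.8 and 328.7 units in control bodies, and 106.5, 112.8, 112.9 and 113.4 in deleted bodies. A single bright member, named after its values were seen, ran the other way: ILMN_2829699 gave 223.9, 289.0 and 594.7 units on control arrays 1, 2 and 3. Its deleted body values of 118.7, 105.6, 120.3 and 106.3 units were at background like those of the rest.

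How unevenly the members were expressed among control bodies was not part of the rule, which asked only for detection on each array. Control array 3 lay at least 2-fold below both other control arrays in 12 of 98 members (12.2%), against 101 of all 23268 probes (0.434%). At a 4-fold limit the shares were 6.12% of members and 0.0774% of probes, and at 10-fold 3 members stood beside 5 probes in all. Array 1 was at least 2-fold below both others in 0 members, against 202 of all probes (0.868%), and array 2 in 0 members, against 9 probes. Over all probes array 1 was thus the one most often low, and at that share 0 members is near the background. Array 3 was at least 2-fold above both others in 1 member, against 26 of all probes. Of the 20 members that reached 300 units, 11 were low on array 3, and the twelfth such member was ILMN_2771550. The share among other probes of at least 300 units was not counted, so nothing is read from the 11 of 20. All these counts use values that hold the background, so they can miss members that differ between control arrays. ILMN_2601155 fell short of 2-fold on array 1, at 162.3, 406.3 and 368.2 deposited units, where the backgrounds were 112.7, 114.4 and 111.8. ILMN_3162005 fell short on array 3, at 230.9, 282.4 and 133.9 deposited units. Counts over all members with background taken off are not given here.

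On the deposited intensities, with each array's own background taken off, the 12 probes low on array 3 had a signal on array 1 of 4.94 to 37.6 times that on array 3, with a median of 18.7. For array 2 over array 3 the ratio ran from 4.86 to 36.3. Several of these ratios divide by a small array 3 signal, such as 26.7 units for ILMN_1216452 and 27.8 for ILMN_1244316. The lowest detected probe of array 3 lay 12.78 units above background, so such ratios are imprecise. Arrays 1 and 2 differed little with background taken off, with ratios of 0.891 to 1.46. In normalized values array 1 was higher than array 2 in 12 of 12 probes, but ILMN_1225816 and ILMN_2723322 turned the other way without normalization, so the order of arrays 1 and 2 depends on the scaling. The ratio of ILMN_1225816, the brightest, was the lowest of the 12 for array 1 over array 3, at 4.94. A mean over control bodies therefore stands for these 12 probes less well than the 3 values do. On the whole array, replicate 3 did not stand apart in mean intensity (476.6 units, against 381.2 and 503.5 on control arrays 1 and 2) or in the share of probes detected (41.4%, against 40.1% and 42.5%), and the part of other array properties in these values was not tested.

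**Figure D2:**
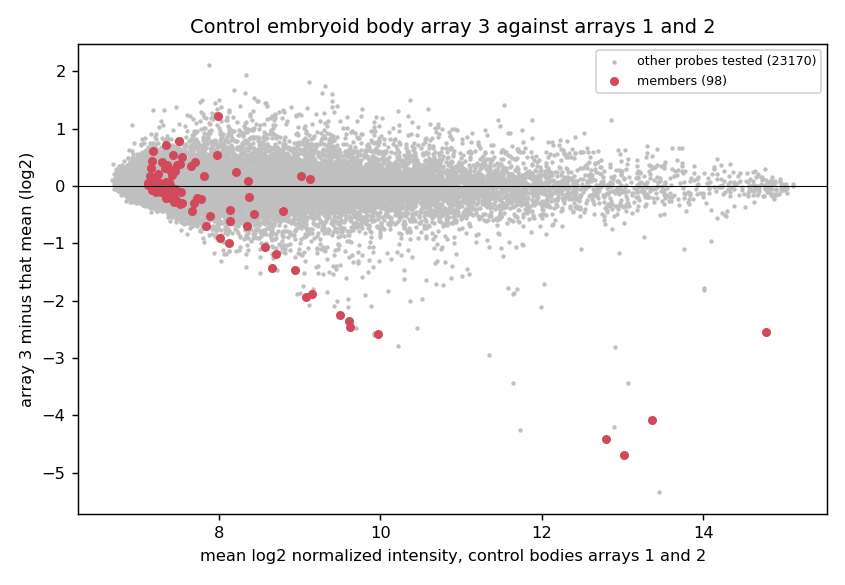
Log2 difference of control embryoid body array 3 from the mean of arrays 1 and 2 (vertical) against that mean (horizontal, log2 normalized intensity) for the 98 members (red) and the other tested probes (grey). The 4 brightest members and a trail of dimmer ones lie far below 0, where few grey points are found.

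Of the 18 probes on the whole array that were at least 4-fold lower on control array 3, 6 were members and 12 were not. Each of the 12 was detected on at least 1 stem cell array, and 9 of them were detected on all 4 deleted body arrays. Others missed the rule narrowly and had the shape of the members. ILMN_1212702 read 10854, 6773 and 790.5 units in control bodies and 124.2, 125.0, 121.5 and 128.3 in deleted bodies, but was just detected on 1 deleted body array and on 1 stem cell array.

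ILMN_1239117 read 1023, 609.6 and 144.3 units in control bodies, close to ILMN_1244316. It missed the rule through deleted stem cell replicate 1 alone, at 129.1 units with a detection p-value of 0.0353. ILMN_1236718, at 1191, 584.0 and 150.1 units, missed through deleted stem cell replicate 2 alone, at 135.7 units and a p-value of 0.015. These probes were named after their values were seen.

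At the other end, the dimmest members were scarcely above background in any group. ILMN_2991779 gave 145.4, 134.9 and 141.9 units in control bodies and 126.1, 116.9, 119.5 and 123.7 in deleted bodies. ILMN_1226315 gave 143.9, 136.2 and 144.6 against 123.5, 126.7, 112.8 and 125.6 units. For both the difference was 1.16-fold, and the lowest control value stood 1.06-fold and 1.07-fold above the highest of the 8 other arrays. ILMN_3112526, at 148.5, 141.6 and 137.6 units, and ILMN_2617844, at 145.0, 140.9 and 145.6, completed the 4 dimmest, both under 1.5-fold higher in control than in deleted bodies.

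Dim members had a small range between control arrays, but the background held in these values and the detection limit leave them little room for more. Evenness of the transcripts is therefore not read from it. ILMN_2518406, with a range of 1.38-fold, read 139.7, 230.9 and 145.4 deposited units on control arrays 1 to 3. The backgrounds there were 112.7, 114.4 and 111.8 units. Among the 61 under 200 units, 57 had control arrays within 1.5-fold of each other, with a median range of 1.21-fold, against 1.87-fold among the 37 brighter members. The lowest control signal of each member, with background taken off, was set against the largest margin between background and the lowest detected probe on a deleted body array, 14.25 units. The rule nearly fixes that all 98 members reach it, and the size beyond it is a description. In 62 members the signal was at least 2 times that margin, in 16 at least 5 times and in 10 at least 10 times. ILMN_1225816 had 349 times the margin, ILMN_1240267 36.6 times and ILMN_1233994 27.2 times.

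**Figure D3:**
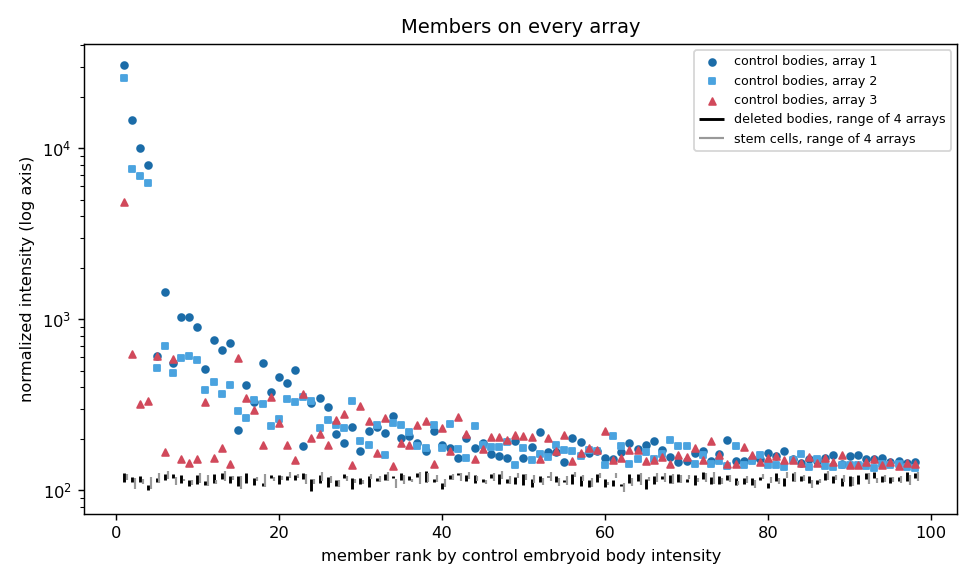
Normalized intensity (log axis) of each of the 98 members, ranked by control embryoid body intensity, on control body arrays 1 to 3 (points), with the range of the 4 deleted body arrays (black bars) and of the 4 stem cell arrays (grey bars). Black and grey bars stay near background throughout, and the red triangles of array 3 fall below the blue points in many of the brighter members.

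The limits of the rule cut through a continuous range. Just inside the control limit were ILMN_3113686, whose highest control p-value was 0.00855, and ILMN_3112526 and ILMN_2991779, both at 0.00748. Just outside it, at 0.0107, were ILMN_1231205, ILMN_1247071 and ILMN_2965123, with geometric means of 144.7, 139.4 and 159.3 units in control bodies. Inside the limit on the other arrays, ILMN_1246139 and ILMN_3113686 had a lowest p-value of 0.0502 and ILMN_2747037 one of 0.0513. Outside it, at 0.0491, were ILMN_2672903, ILMN_2761689 and ILMN_2476452.

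That last probe shows how little can separate a member from a non-member. ILMN_2476452 read 394.2, 545.8 and 640.3 units in control bodies and 115.4, 128.8, 112.6 and 115.3 in deleted bodies, and its value on deleted replicate 2 alone kept it out. Dim members such as ILMN_3113686, at 152.4, 134.7 and 151.0 units in control and up to 128.4 in deleted bodies, were included.

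Each array was also left out of the choice in turn and then read, which gives measurements in an array that had no part in choosing the probes. Without control body array 1, 135 probes met the rule on the other 10 arrays, and 98 of them (72.6%) had a detection p-value under 0.01 on array 1. Array 2 gave 98 of 115 (85.2%) and array 3 gave 98 of 133 (73.7%). Among the 19988 probes undetected on the 8 arrays outside control bodies, only 0.951%, 1.27% and 1.11% were under 0.01 on these 3 arrays. A probe picked on a pair of control arrays was therefore usually, but not always, found on the third.

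Deleted body arrays were left out in the same way and read for probes that stayed undetected at 0.05. The shares were 84.5% of 116 probes for replicate 1, 95.1% of 103 for replicate 2, and 92.5% of 106 for replicates 3 and 4 each. Among all probes undetected on the 7 other arrays outside control bodies, 97.5%, 98.4%, 98.1% and 97.7% were also undetected on replicates 1 to 4. The chosen probes were therefore detected on the array left out somewhat more often than that background, on each of the 4 arrays. Replicate 1 alone kept out 18 probes, at 127.0 to 134.6 units, whereas the other deleted body arrays kept out 5 to 8 each. Among stem cells, deleted replicate 1 alone kept out 16 probes and the 3 other arrays 1 to 8.

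Members were next set among all transcripts detected in control bodies and on no stem cell array. Under 0.01 on all 3 control body arrays and at least 0.05 on all 4 stem cell arrays were 261 probes. Of these, the 98 members (37.5%) were detected on no deleted body array, 39 on 1, 17 on 2, 37 on 3 and 70 (26.8%) on all 4. Both ends of this scale were thus fuller than the middle. The same counts over other probes are not given here, so no all-or-none split is read from them. Members were not brighter as a class than the transcripts found on all 4 deleted body arrays: the medians in control bodies were 178.1 and 175.4 units, and 20.4% and 22.9% reached 300 units. The median fold of control over deleted bodies was 1.12 in the latter, of which 17 of 70 were higher in deleted bodies.

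**Figure D4:**
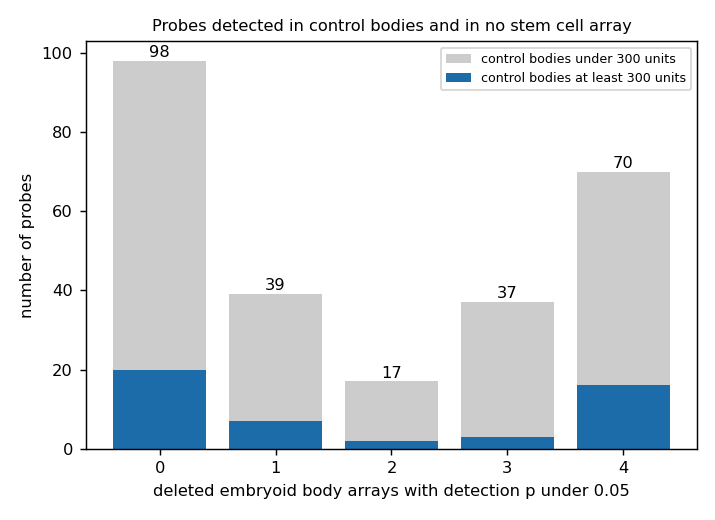
Number of probes (vertical) detected in control embryoid bodies and on no stem cell array, by the number of deleted embryoid body arrays that detected them (horizontal). Blue marks probes of at least 300 units in control bodies, and the 98 members are the bar at 0.

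Among the brightest of these 261 probes, members held ranks 1, 3, 4 and 5. At rank 2 stood a transcript that was much lower in deleted bodies yet still seen there. ILMN_2443330, at 6158, 15662 and 5327 units in control bodies, read 147.8, 154.9, 137.0 and 113.7 in deleted bodies, detected on 3 arrays. ILMN_1223880, at 1324, 2757 and 2810 units, read 208.8, 213.4, 195.7 and 172.4. Neither was lowest on control array 3 by 2-fold. In values that hold the background, 0 of 163 such probes outside the members had array 3 at least 2-fold below both other control arrays. Among members 12 of 98 did. The 163 leave out every probe detected on a stem cell array. ILMN_1212702, ILMN_1239117 and ILMN_1236718, which had the shape of the members, are among those left out, so the shape is not particular to members. ILMN_2443330 and ILMN_1223880 were named after their values were seen.

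The reverse pattern held dimmer probes. Detected under 0.01 on all 4 deleted body arrays and at 0.05 or above on the 3 control body and 4 stem cell arrays were 28 probes. This set had to pass on 4 arrays where the members had to pass on 3, so the sizes are not directly comparable. Its geometric means over the 4 deleted body arrays had a median of 158.6 units and a maximum of 270.1. Of the 28 probes, 4 (14.3%) reached 200 units, where 37 of 98 members (37.8%) did so in control bodies.

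In the deleted line the members' values are a description, since the rule held them undetected in deleted bodies and deleted stem cells alike. Log2 differences between deleted bodies and deleted stem cells ran from -0.15 to 0.12, with a median of 0.00 against 0.02 over all probes. For ILMN_1225816 the difference was -0.07 (SE 0.58) and for ILMN_1240267 it was 0.03 (SE 0.94), with errors that include the spread of the uneven control bodies. Between deleted and control stem cells, which the rule also held undetected, log2 differences ran from -0.14 to 0.17. In limma's fit, 0 of 98 members passed in either comparison, at an unadjusted p under 0.05 as well. Over all probes 22.3% passed in the first and 0% in the second (7991 and 2091 probes at an unadjusted p under 0.05), and nothing is read from the members' counts because the rule fixed both groups at background. Without deleted stem cell replicate 2, calls over all probes went from 5189 to 2618 in the first comparison and from 0 to 496 in the second, and without control stem cell replicate 2 the second gave 27.

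Being undetected did not place the members evenly among the background probes. Their median detection p-value was 0.355, 0.417, 0.408 and 0.420 on the 4 deleted body arrays, where the 19890 other probes undetected on the same 8 arrays had medians of 0.553 to 0.589. On stem cell arrays the members' medians were 0.507 and 0.448 in the control line and 0.339 and 0.407 in the deleted line, against 0.563 to 0.581. Members thus ranked somewhat higher against the negative control beads on all 8 arrays, in stem cells as in deleted bodies, with the smallest gap on control stem cell replicate 1. The other probes did not have to be detected in control bodies, as members did. That condition can by itself favour probes that read higher on any array. Nothing about the members is therefore read from this gap or from the shares that follow.

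Averaged over the 4 deleted body arrays, 20 of 98 members (20.4%) had a p-value under 0.25, against 5.38% of the other probes. In control stem cells these shares were 16.3% and 8.41%, and in deleted stem cells 22.4% and 7.82%. Brighter members did not stand consistently apart from dimmer ones: on deleted body replicate 2 their medians were 0.356 and 0.468, and on replicate 4 they were 0.435 and 0.375. The 4 brightest members lay between 100.6 and 125.5 units in deleted bodies and between 100.9 and 124.1 in stem cells, values that the rule limits to undetected ones.

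**Figure D5:**
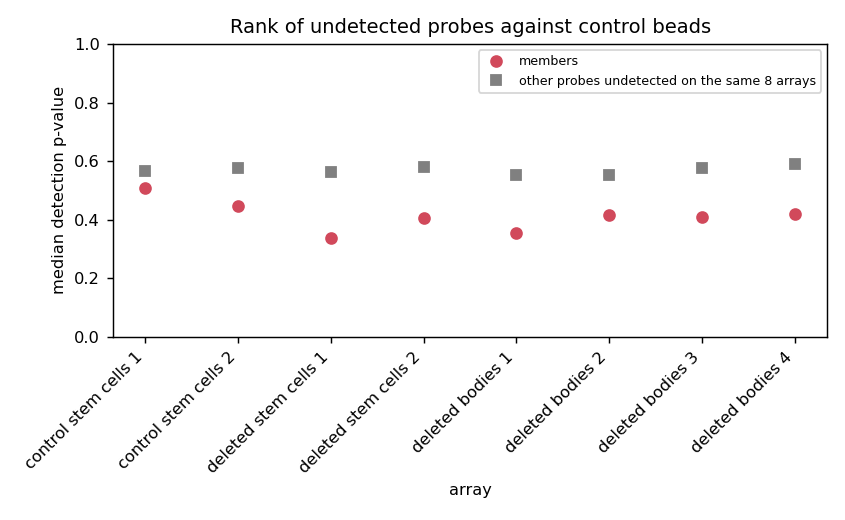
Median detection p-value (vertical, where lower means brighter against the negative control beads) of the 98 members (red) and of the 19890 other probes undetected on the same arrays (grey squares), for each of the 8 stem cell and deleted embryoid body arrays. Red points lie below the grey squares on all 8 arrays, but the grey probes did not have to be detected in control bodies.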

How the data were processed

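MouseWG-6 version 2, revision 3 arrays were exported by the authors from GenomeStudio 2011.1 (Gene Expression module 1.9.0), per the series' design text. The deposited table holds the intensity of each probe on each array, not normalized between arrays, and a detection p-value that moves in steps of 1 in 936. The design text adds that the authors then quantile normalized the raw intensities, and the submitters' processing notes name limma, with no role. No source read for this work says whether background was subtracted. Deposited intensities start at 85.9, so the log2 values needed no offset. All 22 value columns matched 1 sample title each.

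For the fits, quantile normalization across 11 arrays was followed by a log2 transform. Probes detected at 0.05 on 2 or more arrays, 23268 in number, were fitted with 4 group means in limma 3.58.1 (R 4.3.3), with Benjamini-Hochberg adjustment over all of them and a threshold of 0.05. The fitting code was tested on simulated data. All 98 members passed the filter through their control embryoid body arrays. Background is the median intensity of probes with a p-value of 0.45 to 0.55. The number of arrays limits the precision. No 2 arrays held identical values.

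Named were the 12 brightest and 4 dimmest members, the 4 most uneven others, the 3 nearest each limit on both sides, and the 3 nearest the brightest in profile. Members and lists were chosen with earlier results of these data known. Alternatives were other detection limits, median scaling, no normalization, neqc with an offset of 16, no filter, a replicate block, the compared groups alone, and each array left out.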

Additional observations from a re-analysis of the deposited data

Results flagged for a closer look

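Among the 4 deleted embryoid body arrays, 1 array stood far from the rest in 4 of the 23 named members, where chance gives about 1 in 20. By the same measure an array stood apart in 1003 of 19988 probes undetected on the 8 arrays outside control bodies (5.02%) and in 10 of all 98 members (10.2%). ILMN_1225816 read 125.5 units on replicate 1 and 111.6 to 113.1 on the others, a gap of 0.895 of the range. ILMN_2723322 read 100.6 units on replicate 2 against 106.7 to 107.7 (0.865). ILMN_1244316 read 105.5 units on replicate 4 against 113.2 to 114.1 (0.892), and ILMN_2748850 read 106.5 units on replicate 1 against 112.8 to 113.4 (0.914). All 4 values were at background and undetected, with p-values of 0.0652, 0.994, 0.936 and 0.912, and 3 of them were low rather than high.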

How the results depend on the processing

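The number of members depended on the detection limits. It was 98 as defined, 164 with a control limit of 0.05, 57 with at least 0.10 on the other arrays, 206 with at least 0.01 there and 167 when stem cell arrays put no condition. Leaving out 1 array gave 99 to 135. The members' median log2 difference between control and deleted embryoid bodies was 0.64, or 0.70 without normalization, 1.80 after neqc background correction and 0.60 to 0.66 with 1 array left out. With a limit of 0.05 on the control array left out, 87.7% of the chosen probes were found again, against 76.8% at 0.01. With a limit of 0.01 on the deleted body array left out, 98.4% stayed undetected, against 91.0% at 0.05. Within the deleted line and between stem cells, 0 members were called under every alternative and with each array left out, which the rule fixes, so these counts say nothing about stability. Where 1 stem cell array was left, its spread was taken from the other groups. With the replicate number as a block, 0 members were called in either comparison, and the calls over all probes within the deleted line went from 5189 to 3556. Same-numbered arrays of the 2 deleted groups correlated at 0.12 and 0.18 in their deviations, and those of the stem cell groups at -0.02. With 2 stem cell arrays to a line, their deviations mirror each other, so the -0.02 is a single value. Over all groups same-numbered arrays ran from -0.25 to 0.19, while control body array 3 and deleted body array 4 stood at 0.34. The numbers were not taken to pair the samples.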

Other observations

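Outside the members, 9 probes were at least 4-fold lower on control embryoid body array 3 and detected on all 4 deleted body arrays. In 8 of the 9, deleted replicates 1 and 2 both lay above replicates 3 and 4, an order found in 18.5% of the 16277 tested probes detected on all 4 deleted arrays. ILMN_1230073 gave 6196, 20063 and 274.4 units in control bodies and 7443, 4255, 600.9 and 880.8 in deleted bodies, and ILMN_2450735 gave 5077, 11304 and 410.9 against 4308, 3008, 706.0 and 878.6. Unlike the members, both were present in stem cells, at 1067 to 3188 and 806.0 to 2199 units. These probes were picked after their values were seen, and no test was made. Among the members, 18 of 98 had that order of deleted arrays, all at background.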
